A study of Homo sapiens with 6 samples.

Results

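Clade B serpins, or ov-serpins, are protease inhibitors that mostly stay inside the cell, and they were followed here in an esophageal squamous cancer line and its radioresistant derivative before and after irradiation. The set was the 9 genes SERPINB1, SERPINB2, SERPINB3, SERPINB4, SERPINB5, SERPINB6, SERPINB8, SERPINB9 and SERPINB13, chosen by family name with earlier results of these arrays known, among them the lower SERPINB3 signal in the resistant line. Of the 9 genes, 7 had a probe that carried their symbol, 10 probes in all out of 48803 on the array, and the probe with the highest mean intensity over the 6 arrays was selected on that value as the main probe of each gene. SERPINB2 and SERPINB6 had no probe under their symbol in the annotation used here and were not analysed. Levels and the choice of probe are therefore descriptions, and no result below is independent support for the choice of the family.

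TE13 is a human esophageal squamous carcinoma cell line that is sensitive to radiation, and TE13R is a radioresistant line derived from it by repeated fractionated irradiation, which the study received together with TE13. Both lines were profiled on Illumina Human-6 V3 bead arrays at 0, 8 and 24 h after exposure to X-rays from a 6 MV linear accelerator, with 1 array for each line and time point and no dose given for these arrays. No unirradiated culture was profiled at 8 or 24 h, so that irradiation and time in culture cannot be told apart. TE13R is a single derived line, so that radioresistance and any other difference between the 2 cultures cannot be told apart either.

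The 6 arrays had nearly the same spread of values, with a median intensity of 7.95 to 7.96, a 95th percentile of 2891 to 2897 and 37.3% of probes above the detection limit on each. That limit was an intensity of 20.2, or 3 times the noise, taken as the root mean square of all negative readings. All 6 squamous epithelial markers with a probe, among them the basal keratin KRT5 and the desmosomal cadherin DSG3, were above the limit on every array. None of 7 fibroblast and none of 5 leukocyte markers was above it on all 6 arrays, although the monocyte marker CD14 was on 5 and the collagen gene COL1A1 on 3, whereas 2 of 4 endothelial markers, PECAM1 and VWF, were, with CDH5 and KDR above it on none.

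Serpins present a reactive centre loop that the target protease cuts, after which the protease is dragged across the inhibitor and trapped in a covalent complex. The clade B members lack a classical secretion signal and act on serine or cysteine proteases that leak from lysosomes and granules or are met inside the cell. In human the genes lie in a cluster on chromosome 18 and a smaller one on chromosome 6, and several members are characteristic of stratified squamous epithelium. SERPINB3 and SERPINB4, the squamous cell carcinoma antigens, are a nearly identical pair that differ in their targets: SERPINB3 inhibits papain-like cathepsins, and SERPINB4 the chymotrypsin-like cathepsin G and mast cell chymase.

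The stretches in front of SERPINB3 and SERPINB4 are shown first because they are nearly the same. They lie before the start of the gene, so that their likeness does not tell which RNA a probe reads. RefSeq starts on the GRCh38.p14 build were found for all 9 genes, and the 250 bases upstream of the start were read for each. Those of SERPINB3 (chr18:63661894-63662143, minus strand) and SERPINB4 (chr18:63644257-63644506, minus strand) were identical at 247 of 250 positions, 98.8%, whereas the other pairs among the 8 members with a single start were 39.3 to 50.5% identical in their best global alignment. SERPINB6 has several starts and was left out of the alignments. Capitals mark the 3 positions that differ, which are G126A, G201A and C228T, counted from 1 at the 5′ end and written from SERPINB3 to SERPINB4.
SERPINB3: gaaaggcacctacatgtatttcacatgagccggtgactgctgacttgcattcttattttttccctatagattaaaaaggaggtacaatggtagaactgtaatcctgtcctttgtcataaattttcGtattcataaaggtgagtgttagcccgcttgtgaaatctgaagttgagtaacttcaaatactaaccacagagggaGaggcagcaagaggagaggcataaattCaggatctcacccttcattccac
SERPINB4: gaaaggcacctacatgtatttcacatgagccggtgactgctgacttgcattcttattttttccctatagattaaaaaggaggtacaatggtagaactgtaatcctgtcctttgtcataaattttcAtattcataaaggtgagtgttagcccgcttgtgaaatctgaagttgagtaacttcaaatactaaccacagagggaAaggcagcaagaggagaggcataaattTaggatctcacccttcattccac

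The promoters of SERPINB5, SERPINB13 and SERPINB8 are shown because their changes at 8 h, the first pair down and the last up, were the 3 that passed the test under all 16 alternatives run. Capitals mark matches to TGANTCA, the core of the site bound by AP-1 (the FOS and JUN dimer), which reads the same on both strands. The windows were chr18:63476708-63476957 on the plus strand for SERPINB5, chr18:63587093-63587342 on the plus strand for SERPINB13 and chr18:63969831-63970080 on the plus strand for SERPINB8.
SERPINB5: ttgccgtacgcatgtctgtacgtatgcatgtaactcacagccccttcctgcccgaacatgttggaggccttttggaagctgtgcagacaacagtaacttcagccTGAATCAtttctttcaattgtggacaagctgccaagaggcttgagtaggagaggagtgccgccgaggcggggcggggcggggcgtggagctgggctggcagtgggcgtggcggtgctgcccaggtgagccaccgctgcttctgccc
SERPINB13: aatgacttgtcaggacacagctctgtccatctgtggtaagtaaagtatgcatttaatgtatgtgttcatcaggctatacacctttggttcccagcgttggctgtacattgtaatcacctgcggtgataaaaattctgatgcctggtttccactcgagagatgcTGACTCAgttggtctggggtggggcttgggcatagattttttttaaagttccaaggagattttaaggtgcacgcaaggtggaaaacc
SERPINB8: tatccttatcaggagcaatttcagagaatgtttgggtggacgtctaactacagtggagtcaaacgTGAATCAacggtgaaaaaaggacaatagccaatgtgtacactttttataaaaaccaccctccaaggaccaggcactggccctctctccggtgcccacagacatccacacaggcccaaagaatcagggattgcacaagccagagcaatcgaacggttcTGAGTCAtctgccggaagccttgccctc
The match stood 146 to 140 bases before the start in SERPINB5 and 87 to 81 bases before it in SERPINB13, and SERPINB8 had 2 matches, at 185 to 179 and at 28 to 22 bases. Of all 35116 promoter windows of this length, 6.57% held the motif. Genes with a match thus included both directions of change, and the match is a description of the letters only. Of the members not shown, SERPINB2 had a match, and SERPINB1, SERPINB6 and SERPINB9 had none. Neither SERPINB3 nor SERPINB4 had a match, nor did they have one to the GC box GGGCGG or to TATAAA, which stood in 42.6% and 10.7% of all windows with both strands read. SERPINB5 held 2 GC boxes that overlap by a base, and SERPINB8 held TATAAA on both strands, overlapping, far from the start. The p53 half-site was read as RRRCWWGYYY without a mismatch, with R for A or G, W for A or T and Y for C or T. In that form it was found in 5.57% of windows and had no match in any member. Sites with a mismatch were not looked for.

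SERPINB5 encodes maspin, a clade B protein of epithelial cells that does not inhibit proteases and is studied as a tumour suppressor. Its probe, ILMN_1793888, gave intensities of 12487 at 0 h, 3408 at 8 h and 1894 at 24 h in TE13. In TE13R the values were 12629, 3166 and 2271. Both 0 h arrays stood well above all later arrays, and the lines lay close together at each time. As in any bulk sample, fewer cells of a type and less RNA per cell cannot be told apart here.

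SERPINB13, also called headpin or hurpin, is an inhibitor of cathepsins L and K that marks stratified epithelium. In TE13 its probe ILMN_1769759 read 964 at 0 h, 172 at 8 h and 375 at 24 h. In TE13R it read 2049, 239 and 760. The order of the time points was the same in both lines, highest at 0 h, lowest at 8 h and partly back at 24 h, and TE13R was the higher line each time.

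SERPINB3 had an intensity of 735 at 0 h, 183 at 8 h and 119 at 24 h in TE13 (probe ILMN_1703855). In TE13R it started at 401 and then fell below the detection limit, with 13.3 at 8 h and 8.17 at 24 h. A second probe for the gene, ILMN_2120222, was below the limit on all 6 arrays, so that the pattern rests on 1 of its 2 probes. SERPINB4 was above the limit on the TE13 0 h array alone, at 87.1, and at 7.51 or lower on the other 5 arrays. Probes for this pair may read RNA of either gene, and their sequences were not checked.

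SERPINB8 is an inhibitor of furin, the proprotein convertase of the secretory pathway. Its main probe, ILMN_2397028, read 407, 1414 and 417 at 0, 8 and 24 h in TE13, and 420, 1388 and 564 in TE13R. The 2 arrays at 8 h were the highest, and the other 4 did not overlap with them. The second probe, ILMN_1718960, gave 386, 1398 and 377 in TE13 and 357, 1384 and 566 in TE13R, with the readings of the 2 probes on 1 array never further apart than 1.18-fold. SERPINB8 was the 1 member with 2 probes above the limit on all arrays, and both were highest at 8 h in both lines.

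SERPINB1 protects cells against the neutrophil serine proteases elastase, cathepsin G and proteinase 3. Its probe ILMN_1679133 read 542, 436 and 875 in TE13 and 2424, 689 and 1172 in TE13R at 0, 8 and 24 h. The TE13R 0 h array was by far the highest, and the remaining TE13R values overlapped with those of TE13. SERPINB9, the intracellular inhibitor of granzyme B, was not detected: both of its probes were below the limit on all 6 arrays, with 17.6 as the highest reading.

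Of the 7 members with a probe, 4 (SERPINB1, SERPINB5, SERPINB8 and SERPINB13) were thus above the limit on all 6 arrays, also with the limit set at 2 or 5 times the noise. Tests used the members whose main probe was in the upper 50% of the array on at least 3 arrays. These were SERPINB1, SERPINB3, SERPINB5, SERPINB8 and SERPINB13, 5 of the 12783 genes tested. SERPINB4 and SERPINB9 did not pass this filter.

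**Figure D1:**
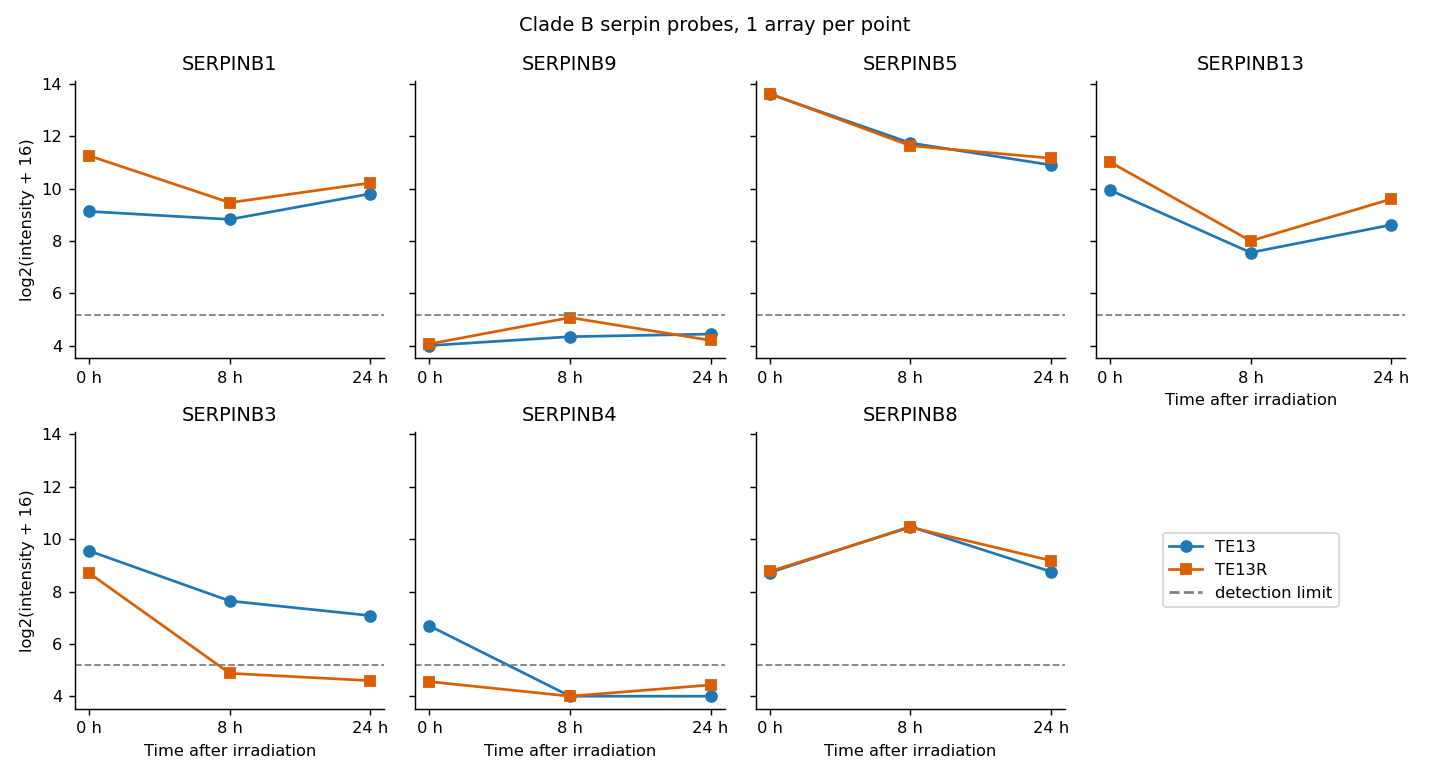
Levels of the 7 clade B serpins with a probe, as log2(intensity + 16) of the main probe (y axis) against time after irradiation (x axis), with 1 array per point, TE13 as blue circles, TE13R as orange squares and the detection limit of 20.2 as a dashed line. SERPINB5 fell in both lines from about the same start, SERPINB8 peaked at 8 h, SERPINB3 dropped below the limit only in TE13R, and SERPINB9 stayed below it throughout.

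The first comparison asked how TE13R differed from TE13 over the 3 time points. SERPINB3 was lower in TE13R at every time, by 1.83-fold at 0 h, at least 9.09-fold at 8 h and at least 5.91-fold at 24 h, the last 2 being bounds because TE13R was under the detection limit and was set to it. SERPINB4, the partner gene, was at least 4.32-fold lower in TE13R at 0 h and below the limit in both lines afterwards. SERPINB13 was 2.13-, 1.39- and 2.03-fold higher in TE13R at 0, 8 and 24 h. SERPINB1 was 4.47-fold higher at 0 h but 1.58- and 1.34-fold higher at 8 and 24 h. SERPINB5 and SERPINB8 differed little between the lines, by 1.20-fold and 1.35-fold at most, both at 24 h.

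These differences were tested with limma on log2(intensity + 16), a scale that understates changes of dim probes, with line and time point as terms and Benjamini-Hochberg adjustment over all 12783 genes. The labels do not say that the arrays come from separate cultures. Each p-value sets a line or time effect against the scatter of the 6 arrays around common line and time effects. Any difference between the lines in response is part of that scatter. Limma draws the scatter of each gene toward that of other genes of like intensity, with 2 residual and 5.75 prior degrees of freedom. Of the 5 members tested, 1 was lower, SERPINB3, and 0 were higher, where 2.45% of all genes tested were called lower and 2.61% higher. The limma log2 difference of SERPINB3 was -2.03 (SE 0.39, adjusted p = 0.0281), which was among the results known when the family was chosen and is no further support for it. With its readings under the limit raised to the limit, the mean difference was -1.74, and with 64 in place of 16 added before log2 it was -1.27.

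SERPINB13 did not pass the limma threshold, with a log2 difference of 0.84 (SE 0.20, adjusted p = 0.0602), although it was higher in TE13R at 3 of 3 time points. SERPINB1 also was higher at 3 of 3 time points and did not pass, at 1.06 (SE 0.32, adjusted p = 0.115). Its 95% interval was 0.33 to 1.79, and without the 0 h arrays the difference was 0.53 (adjusted p = 0.107). For SERPINB5 the difference was 0.06 with a 95% interval of -0.26 to 0.38, and for SERPINB8 0.15 with an interval of -0.27 to 0.57, on the log2 scale. The median difference was 0.15 over the 5 members, with or without the raised readings, and 0.01 over all genes.

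An exact two-sided permutation test of the 3 arrays of each line, which ignores the time points and cannot go below p = 0.1, gave p = 0.3 for SERPINB3, 0.2 for SERPINB1, 0.5 for SERPINB13, 0.7 for SERPINB8 and 0.9 for SERPINB5. The limma call for SERPINB3 was lost without the 8 h arrays (log2 difference -1.67, adjusted p = 0.150) and without the filter on dim probes (adjusted p = 0.349), and also without the trend (adjusted p = 0.0914), without the time point as a term and in the methods' t-test, 5 of 13 alternatives in all. SERPINB1 was called in limma when the 24 h arrays were left out, at 1.38 (adjusted p = 0.0136).

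**Figure D2:**
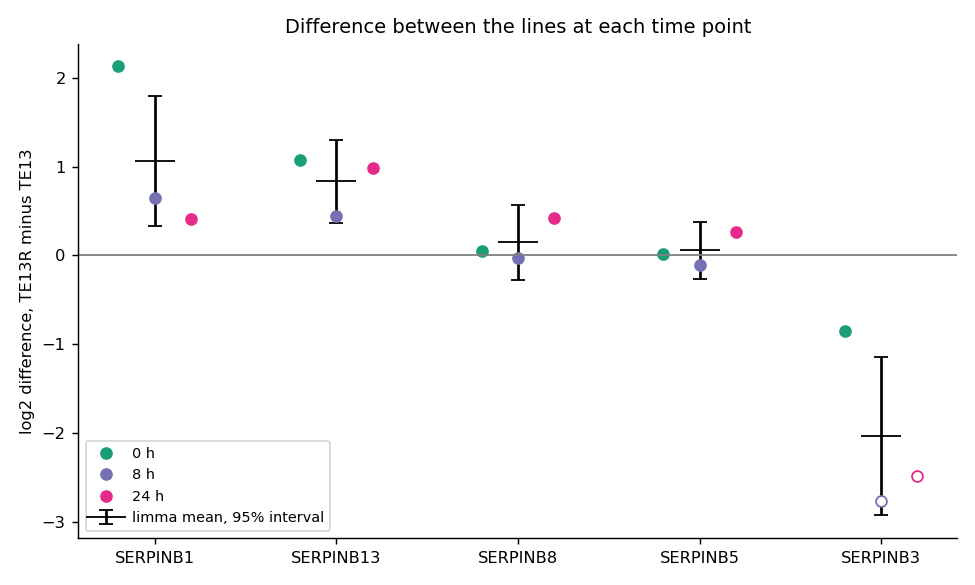
Log2 difference between TE13R and TE13 on the log2(intensity + 16) scale (y axis) for the 5 members tested (x axis), with 1 point for each time after irradiation, open where TE13R was below the detection limit and its own reading was used, and the limma mean with its 95% interval in black. SERPINB1 and SERPINB13 lie above 0 at all 3 times, SERPINB3 below, and SERPINB5 and SERPINB8 close to 0.

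The second comparison asked what changed between 0 and 8 h in both lines. SERPINB13 fell by the widest margin among the members measured on all arrays, 5.61-fold in TE13 and 8.56-fold in TE13R. Maspin, SERPINB5, fell 3.66-fold in TE13 and 3.99-fold in TE13R, and SERPINB3 fell 4.01-fold in TE13 and at least 19.9-fold in TE13R. SERPINB8, the furin inhibitor, rose 3.48-fold in TE13 and 3.30-fold in TE13R. SERPINB1 was 1.24-fold lower in TE13 and 3.52-fold lower in TE13R.

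By limma, 4 of the 5 members tested were lower at 8 h and 1 was higher. These counts have to be read against a background in which 28.8% of all genes tested were called lower and 27.5% higher, so that a call in itself was common. The log2 changes were -2.70 for SERPINB13 (SE 0.25, adjusted p = 2.36e-04), -1.93 for SERPINB5 (SE 0.17, adjusted p = 2.36e-04), -2.87 for SERPINB3 (SE 0.47, adjusted p = 0.00151) and 1.72 for SERPINB8 (SE 0.22, adjusted p = 5.66e-04). In size, 2.71% of all genes had a change as low as that of SERPINB13 or lower, and 9.30% one as low as that of SERPINB5. With the TE13R reading of SERPINB3 at 8 h raised to the limit, its change was -2.72. The median change was -1.93 over the 5 members, with or without the raised reading, and 0.09 over all genes.

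SERPINB1 was called lower by a narrow margin, with a log2 change of -1.05 (SE 0.39, limma adjusted p = 0.0489). Without the TE13R 0 h array the change was -0.25 (adjusted p = 0.370), without the TE13 8 h array -1.36 (adjusted p = 0.0768) and without the TE13R 8 h array -0.73 (adjusted p = 0.305), and without the TE13 0 h array it was -1.85 (adjusted p = 2.55e-04). The call held in 4 of 16 alternatives. The calls for SERPINB5, SERPINB8 and SERPINB13 held in 16 of 16, and that for SERPINB3 in 14 of 16, the exceptions being no filter (adjusted p = 0.0661) and no line term (adjusted p = 0.0720). Several alternatives, among them no filter, no trend and 24 h arrays left out, keep the estimate at 8 h as it was and change only its error. The alternatives are thus not independent checks.

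The third comparison set 24 h against 0 h, and the members differed in how far they still stood from their 0 h readings. SERPINB5 was still lower than at 8 h, at 6.59-fold below 0 h in TE13 and 5.56-fold below it in TE13R. SERPINB3 was 6.16-fold below 0 h in TE13 and at least 19.9-fold below it in TE13R. SERPINB13 had come part of the way back and stood 2.57- and 2.70-fold below 0 h. SERPINB8 was within 1.03-fold of its 0 h value in TE13 and 1.34-fold above it in TE13R. SERPINB4 was at least 4.32-fold below its 0 h reading in TE13 at both 8 and 24 h.

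Against 0 h, limma called 3 of the 5 members lower at 24 h and 0 higher, where 27.8% of all genes tested were called lower and 27.8% higher. SERPINB5 had a log2 change of -2.59 (SE 0.17, adjusted p = 5.47e-04), SERPINB3 one of -3.29 (SE 0.47, adjusted p = 0.00106) and SERPINB13 one of -1.37 (SE 0.25, adjusted p = 0.00255). With the TE13R reading of SERPINB3 at 24 h raised to the limit, its change was -3.00. Of all genes, 1.56% had a change as low as that of SERPINB5 or lower. For SERPINB8 the change was 0.22, with a 95% interval of -0.29 to 0.74 on the log2 scale. The median over the 5 members was -1.37, against 0.07 over all genes. The calls were lost for SERPINB3 without the filter (adjusted p = 0.0546) and for SERPINB13 without the line term (adjusted p = 0.0550). This comparison shares its 0 h arrays with the one before, so that the 2 sets of changes are not independent.

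SERPINB1 stood on opposite sides of its 0 h reading in the 2 lines, 1.61-fold higher at 24 h in TE13 and 2.07-fold lower in TE13R. The fitted log2 change was -0.18 (SE 0.39, limma adjusted p = 0.721). The change turned to 0.62 without the TE13R 0 h array (adjusted p = 0.0394), and it was -0.98 without the TE13 0 h array (adjusted p = 0.00489). With 1 array for each line and time, the interaction of line and time could not be fitted, and for no member was the difference between the lines in response tested.

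Between 8 and 24 h, SERPINB13 rose 2.18-fold in TE13 and 3.17-fold in TE13R, while SERPINB8 fell 3.39- and 2.46-fold. SERPINB5 was 1.80-fold lower in TE13 and 1.39-fold lower in TE13R. SERPINB3 was 1.54-fold lower in TE13 and could not be compared in TE13R, where both readings were below the limit. SERPINB1 was 2.01- and 1.70-fold higher.

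In this comparison limma called 2 of the 5 members lower, SERPINB8 and SERPINB5, and 1 higher, SERPINB13, where 5.23% of all genes tested were called lower and 7.67% higher. The log2 changes were -1.50 for SERPINB8 (SE 0.22, adjusted p = 0.0117), -0.66 for SERPINB5 (SE 0.17, adjusted p = 0.0438) and 1.33 for SERPINB13 (SE 0.25, adjusted p = 0.0174). SERPINB1 was at 0.87 (SE 0.39, adjusted p = 0.178) and SERPINB3 at -0.42 (SE 0.47, adjusted p = 0.592). The median was -0.42 over the members, or -0.28 with readings raised to the limit, and 0.002 over all genes.

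All 3 of these calls were lost when either 8 h array was left out. Without the TE13 8 h array the limma adjusted p was 0.132 for SERPINB8, 0.404 for SERPINB5 and 0.0806 for SERPINB13, and without the TE13R 8 h array it was 0.139, 0.297 and 0.283. SERPINB5 also lost its call without the TE13 24 h array (adjusted p = 0.305) or the TE13R 24 h array (adjusted p = 0.0663). SERPINB1 was called higher without the TE13 0 h array (adjusted p = 0.00487), the TE13R 0 h array (adjusted p = 0.00676) or the TE13R 24 h array (adjusted p = 0.0468).

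**Figure D3:**
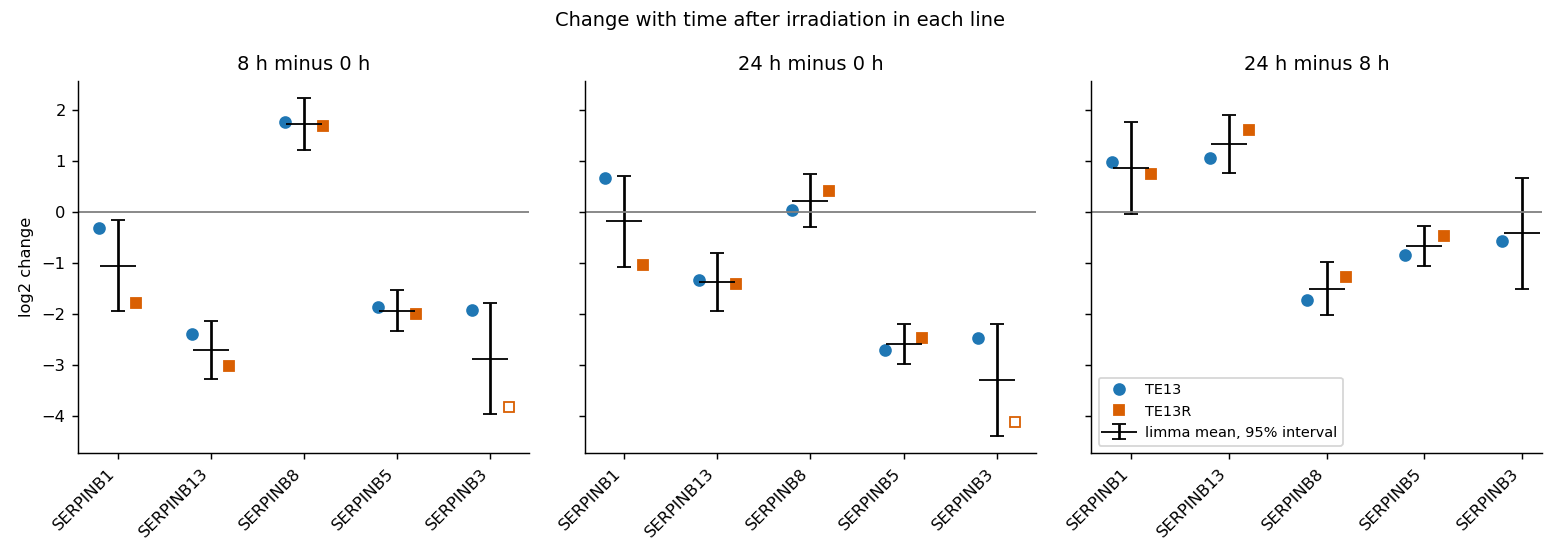
Log2 changes on the log2(intensity + 16) scale (y axis) of the 5 members tested (x axis) between pairs of time points, with 1 point per line, open where the later TE13R reading was below the detection limit, and the limma mean with its 95% interval in black. SERPINB8 goes up at 8 h and down again by 24 h, SERPINB13 does the reverse, SERPINB5 keeps falling, and the SERPINB1 points of the 2 lines lie on opposite sides of 0 for 24 h against 0 h.

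Over the 6 arrays, the log2 levels of SERPINB8 and SERPINB13 ran against each other with r = -0.80, and those of SERPINB3 and SERPINB5 together with r = 0.77, values that are given as a description of 6 arrays whose points share 3 time points. The squamous markers did not move as one with the family. The desmosomal cadherin DSG3 read 1263, 236 and 623 in TE13 and 1855, 203 and 717 in TE13R, and its partner DSC3 also was lowest at 8 h. The keratin KRT5 read 3732, 9794 and 8390 in TE13 and 9478, 10945 and 9097 in TE13R, and SFN, a 14-3-3 protein of epithelium, was highest at 8 h. The summed squamous markers ranged from 18586 to 51947 in TE13 and from 25953 to 53978 in TE13R, and the part of cell state in the serpin changes was not tested.

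Of the endothelial markers, VWF read 44.3, 20.6 and 502 in TE13 and 940, 62.6 and 313 in TE13R. It was lowest at 8 h in both lines, in TE13 at a reading close to the limit of 20.2. PECAM1 instead read 29.6, 89.7 and 138 in TE13 and 34.9, 133 and 74.1 in TE13R. Its lowest reading was at 0 h in both lines. The summed endothelial markers were 76.8 to 655 in TE13 and 203 to 985 in TE13R, while CDH5 and KDR were never above the limit.

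For the 4 members above the limit on all arrays, the 3 tested genes whose levels ran most like the member were named by their correlation over the 6 arrays, with no test. For SERPINB5 they were PDCD7 and PCLAF (both r = 0.999) and CCR6 (r = 0.998), and for SERPINB13 they were OR2A9P (r = 0.999), SPG11 (r = 0.996) and AFTPH (r = 0.993). SERPINB8 was followed most closely by CARD10 (r = 0.997), BRI3BP (r = 0.996) and RDH13 (r = 0.995), and SERPINB1 by FBH1 (r = 0.994), NDRG3 (r = 0.989) and SAT1 (r = 0.988). These genes share the 6 arrays and 3 time points with the members and were picked for their likeness out of 12783.

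The 4 remaining clade B genes with a probe, SERPINB7, SERPINB10, SERPINB11 and SERPINB12, were mostly dim. SERPINB7, also called megsin, read 262, 101 and 104 in TE13 and 107, 84.7 and 90.0 in TE13R, with the highest reading on the TE13 0 h array. Its second probe read 103 and 38.0 at 0 h in TE13 and TE13R and was below the limit on the other 4 arrays. SERPINB10 was above the limit on the TE13 0 h array alone, at 29.4, and no probe of SERPINB11 or SERPINB12 reached the limit. SERPINB7 and SERPINB10 passed the filter, and in limma 0 of these 2 genes were called in any of the 4 comparisons. Of all genes tested, 5.05% were called between the lines, 56.3% at 8 h, 55.6% at 24 h and 12.9% between 8 and 24 h. The log2 change of SERPINB7 at 8 h was -0.77 (SE 0.36, limma adjusted p = 0.103).

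Along chromosome 18 the genes run in the RefSeq order BCL2, KDSR, VPS4B, SERPINB5, SERPINB12, SERPINB13, SERPINB4, SERPINB3, SERPINB11, SERPINB7, SERPINB2, SERPINB10, HMSD, SERPINB8, CDH7, CDH19 and DSEL. The members called lower at 8 h, SERPINB5, SERPINB13 and SERPINB3, stood toward the BCL2 end, and SERPINB8, which rose, was the last serpin toward the CDH7 end. Of the 5 flanking genes tested, 4 were called at 8 h, where 56.3% of all genes tested were called in either direction. DSEL was not called (log2 change 0.61, limma adjusted p = 0.252). The apoptosis inhibitor BCL2 had a log2 change of -1.28 at 8 h (limma adjusted p = 0.0191), the sphingolipid enzyme gene KDSR one of -0.74 (adjusted p = 0.0175) and VPS4B, an ATPase of the ESCRT machinery, one of -2.17 (adjusted p = 2.36e-04). On the far side the cadherin gene CDH7 rose by 1.52 (adjusted p = 0.00491).

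On chromosome 6 the order is GMDS, MYLK4, WRNIP1, SERPINB1, SERPINB9, SERPINB6, NQO2, BPHL and TUBB2A. SERPINB1 was the 1 member tested there. At 8 h its neighbour WRNIP1 was at 0.12 (adjusted p = 0.583 in limma), and NQO2 and the tubulin gene TUBB2A rose by 1.07 and 3.13.

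**Figure D4:**
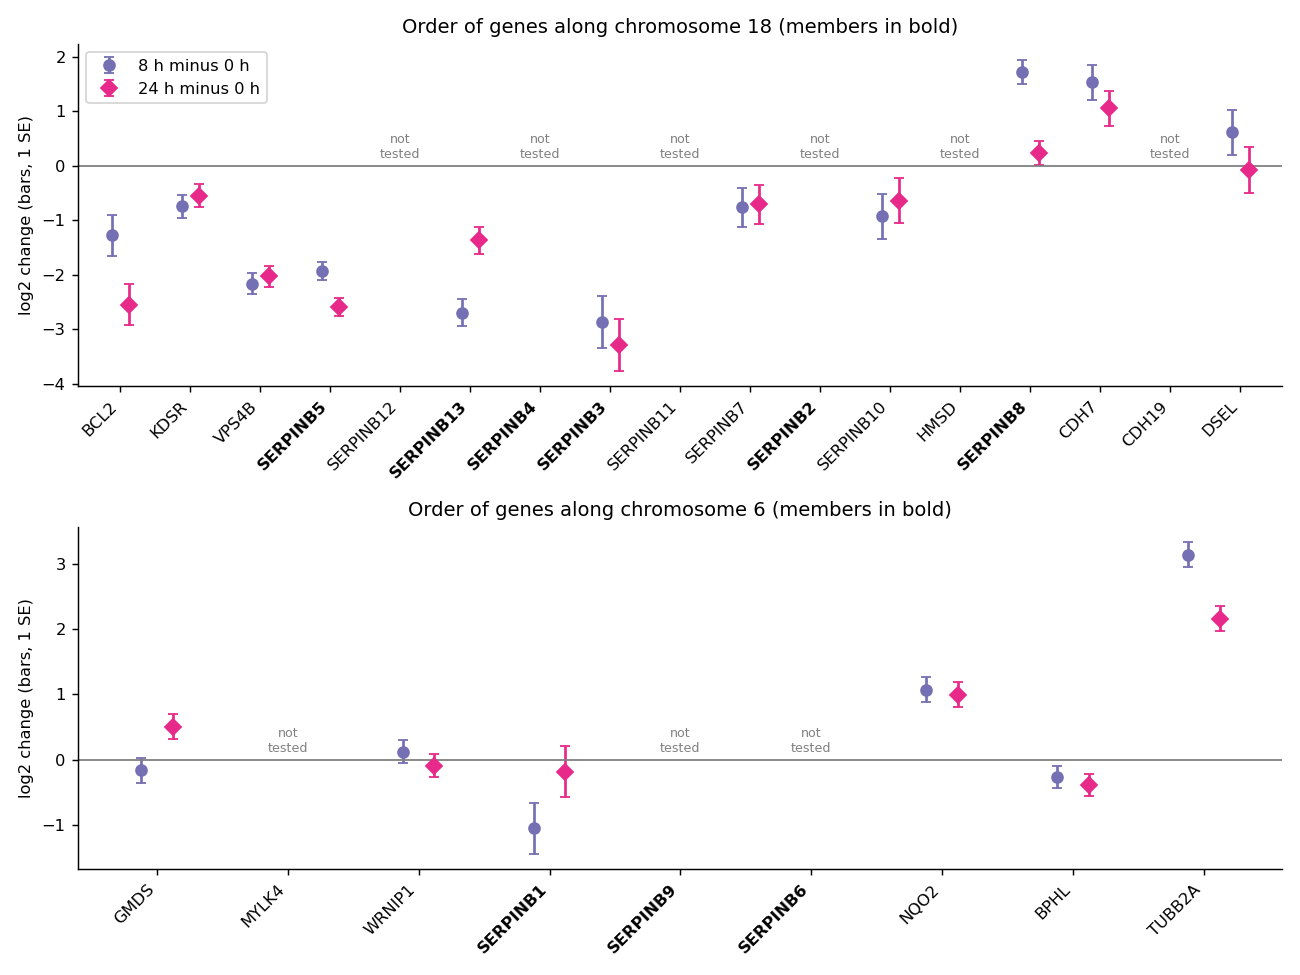
Limma log2 changes against 0 h (y axis, bars 1 SE) at 8 h (circles) and 24 h (diamonds) for genes in their order along chromosomes 18 and 6 (x axis, equal steps and not to distance), with the 9 listed genes in bold. From BCL2 to SERPINB3 all genes tested lie below 0 at both times, and SERPINB8 and CDH7 lie above it.

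Proteases known as targets of clade B serpins were read beside them, listed for the family and not for the measured members alone. Of 14 listed, 13 had a probe and 7 were tested, and against the median of all genes given above their own median change was 0.17 at 8 h and 0.72 at 24 h. Furin, the target of SERPINB8, was higher at 8 h like its inhibitor, at 240, 832 and 516 in TE13 and 324, 924 and 799 in TE13R. Its log2 change was 1.60 at 8 h (SE 0.23, limma adjusted p = 8.35e-04) and 1.16 at 24 h (SE 0.23, adjusted p = 0.00376), a time at which SERPINB8 was not called. KLK8, a kallikrein of squamous epithelium, rose by 1.98 at 8 h (adjusted p = 0.0133).

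At 8 h 2 of the 7 proteases were higher and 2 were lower, where 27.5% of all genes were called higher and 28.8% lower. The tissue plasminogen activator PLAT changed by -1.37 (limma adjusted p = 0.0183) and cathepsin L, CTSL, by -0.50 (adjusted p = 0.0377), the latter with intensities between 6290 and 12636. At 24 h the count was 3 higher (KLK8, FURIN and the urokinase gene PLAU) and 0 lower, where 27.8% of all genes were called each way, and between 8 and 24 h 1 was higher, PLAT, by 2.28 (adjusted p = 0.0157), where 7.67% of all genes were higher. Between the lines 0 of 7 were called by limma, where 5.05% of all genes were called in either direction.

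Lysosomal cathepsins, which include targets of SERPINB3 and SERPINB13 but also other enzymes, were called both ways. Of 13 listed, 10 were tested, with a median change of 0.08 at 8 h, when 2 were higher and 2 lower against the 27.5% and 28.8% of all genes. At that time CTSF and CTSZ rose by 1.70 and 1.42 while CTSC and CTSL changed by -0.86 and -0.50. At 24 h 2 were higher and 1 was lower, where 27.8% of all genes were called each way. Between 8 and 24 h limma called 0 of the 10, where 7.67% of all genes were called higher and 5.23% lower. Between the lines 1, cathepsin H (CTSH), was higher in TE13R by 0.62 (SE 0.12, adjusted p = 0.0315), where 2.61% of all genes were higher. Of 9 genes of plasminogen activation 7 were tested, with a median change of -0.20 at 8 h. The urokinase receptor PLAUR rose by 0.74 at 8 h, PLAT and the annexin ANXA2 were lower, ANXA2 by -1.55, and SERPINE2 was lower in TE13R.

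Of 21 listed serpins of other clades, 20 had a probe and 7 were tested, and their median change was 0.05 at 8 h and 0.01 at 24 h. At 8 h 1 of the 7 was called, and at 24 h 2 were, all higher, where 56.3% and 55.6% of all genes were called in either direction. The collagen chaperone SERPINH1 rose by 1.53 at 8 h (SE 0.28, limma adjusted p = 0.00246), and its change at 24 h was 0.86 (SE 0.28, adjusted p = 0.0311). The plasmin inhibitor SERPINF2 read 10.7, 29.4 and 376 in TE13 and 96.2, 54.5 and 626 in TE13R. Limma called it higher at 24 h (adjusted p = 7.99e-04), but its fitted change is not given because the TE13 0 h reading was below the detection limit. SERPINE2, or protease nexin, was the member of this list that differed between the lines, at -1.12 (SE 0.20, adjusted p = 0.0235). For that comparison 2.45% of all genes were called lower in TE13R.

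Inhibitors of epithelium that are not serpins, secreted or cytosolic, were read last. Of 14 listed, 9 were tested, and 2 were higher and 1 was lower at 8 h, where 27.5% of all genes were higher and 28.8% lower, with a median of 0.26 for the list. SLPI, the secretory leukocyte protease inhibitor, read 839, 5428 and 3295 in TE13 and 793, 2959 and 1721 in TE13R, a log2 change of 2.27 at 8 h (SE 0.24, limma adjusted p = 3.15e-04). The elastase inhibitor elafin, PI3, rose by 2.11 (SE 0.58, adjusted p = 0.0154), and TIMP2 changed by -0.88 (SE 0.18, adjusted p = 0.00392). At 24 h 5 of the 9 were higher (SLPI, SPINT1, SPINT2, TIMP1 and CST3) and 0 were lower, where 27.8% of all genes were called in each direction. The median of the list was then 0.50. TIMP2 was the 1 gene of the list that differed between the lines, lower in TE13R by 0.82 on the log2 scale. Between the lines 2.45% of all genes were called lower.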

How the data were processed

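RNA of 2 cell lines at 3 time points was hybridised to 6 one-colour Illumina Human-6 V3 arrays. The deposited values are probe intensities that the authors collected with Illumina BeadStudio, background-subtracted and on one scale. Their normalization, software version and genome build were not given in the sources used here. Profiling was done in triplicate per the methods, but the labels carry 1 array per line and time point. Arrays of the KY170 lines were not analysed here.

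Negative intensities were raised to 0, and log2 was taken after adding 16. Of 18665 genes with a probe of a single symbol, 12783 whose brightest probe by mean intensity lay in the upper 50% of the array on at least 3 arrays were fitted with limma 3.58.1 in R 4.3.3 (lmFit, then eBayes with the trend option, line and time point as terms, 2 residual and 5.75 prior degrees of freedom). Genes with an adjusted p under 0.05 were called, after Benjamini-Hochberg over all genes tested. The fit was also run on data simulated from its own model with independent normal errors. Such data cannot show where that model fails on these arrays. Arrays carry no counts, and their number limits the precision.

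All 9 members and their probes, the other clade B genes, up to 4 called genes of each list, 3 flanking genes and 3 genes of like pattern were named, and DSG3, DSC3, KRT5, SFN, CD14, COL1A1, PECAM1, VWF, CDH5 and KDR after their values were seen. The members and lists were chosen with earlier results of these data known. Promoters come from RefSeq (GRCh38.p14), aligned with Biopython 1.88. Gene symbols come from the platform annotation. Alternatives were offsets of 1 and 64, quantile normalization, median centring, no filter, the upper 35%, no trend, the mean of probes, a model without the block, the methods' t-test and, in part added after the data were seen, each time point or array left out.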

Additional observations from a re-analysis of the deposited data

Results flagged for a closer look

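SERPINB1 moved in opposite directions in the 2 lines between 0 and 24 h, with a log2 change of 0.67 in TE13 and -1.04 in TE13R, a difference of -1.71. With 1 array for each line and time point this difference was not tested.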

How the results depend on the processing

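No value called in the main analysis changed sign under any alternative run. SERPINB1 at 24 h against 0 h, which was not called, was called with opposite signs when the 0 h array of one or the other line was left out. Of the 5 members tested, limma called 1 between the lines, and it called 0 without the filter on dim probes (2 members and 2270 genes at an unadjusted p under 0.05), 0 without the trend (3 members and 2099 genes) and 0 without the time point as a term (0 members and 416 genes). The methods' t-test called 0 members, also before adjustment (517 genes). Leaving out a time point gave 0 (without 8 h, with 3 members and 1522 genes at an unadjusted p under 0.05) to 2 (without 24 h). At 8 h against 0 h the count fell from 5 to 3 without the filter and to 3 without the line as a term, and leaving out arrays gave 4 to 5. At 24 h against 0 h it was 3 in the main analysis and no alternative moved it by more than 1.5 times. Between 8 and 24 h it went from 3 to 0 without the filter (3 members and 3765 genes unadjusted), 1 without the trend and 0 without the line (3 members and 2859 genes unadjusted), and leaving out arrays gave 0 to 4. Over all genes, the calls between the lines were 646, and 0 without the filter, 174 without the trend, 17 without the time point, 850 without 0 h, 142 without 8 h and 1 by the t-test. Between 8 and 24 h they were 1648, and 0 without the filter, 475 without the trend and 0 without the line. The causes were not tested. The labels carry no replicate numbers, and the time point and the line as terms are the pairing used. Signal over background limits SERPINB3 in TE13R after 0 h, SERPINB4 and SERPINB9 to bounds or no value.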
